A study of Mus musculus with 12 samples.

Results

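The comparison described here set CD117+ bone marrow cells treated with stem cell factor (SCF) against the CD117+ cells titled C, and asked which features of the C-titled cells the treated cells kept and which they lacked. It rests on 6 of the 12 arrays of the study, SCF1 to SCF3 and C-1 to C-3, chosen by their titles and normalized together from the raw intensities with the other 6. All cells came from the bone marrow of β-globin/GFP transgenic mice aged 3 months, and were separated by CD117. The SCF-treated cells received 3 µg/ml of SCF for 48 h. No treatment is given for the C-titled cells, and the sources used here do not say whether they were cultured before RNA was taken. The remaining arrays hold 3 CD117+ samples titled U, for which no treatment is given either, and 3 CD117- samples titled A. They are set beside the results where they bear on them, and because the comparisons share arrays their values are given side by side and not correlated. For the CD117+ and CD117- samples the methods state a separate mouse for each replicate. For the SCF-treated samples this is not stated, so the p-values measure the spread between these samples.

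CD117 is the receptor tyrosine kinase Kit, and SCF is its ligand. Binding of SCF dimerizes the receptor and turns on the RAS to ERK, phosphatidylinositol 3-kinase and STAT5 pathways, after which the receptor is taken up and degraded. Haematopoietic stem cells, early progenitors of all blood lineages, erythroid progenitors and mast cells carry Kit, and most mature blood cells do not.

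The RNA was read on Illumina bead arrays for the mouse, where the brightness of a probe reports the level of 1 transcript. Levels are normalized log2 intensities throughout, and 1 unit is a 2-fold difference. Between 17719 and 18248 probes were above background on the C-titled arrays and between 17866 and 18027 on the SCF-treated arrays, at a detection p under 0.05. The raw median intensity was 96.6 to 97.5 on the C-titled and 103 to 110 on the SCF-treated arrays. Each of 11472 genes was represented by its brightest detected probe, so levels of different genes are not compared. A gene was called at an adjusted p under 0.05 (limma, Benjamini-Hochberg). A gene was counted as kept where the 95% interval of its log2 difference lay inside 1.5-fold in both directions, and in the counts over gene lists kept means kept without a call. Detection in the compared groups was not required for this, so a gene at background in both could count as kept. Where only some arrays of a group were above background, their number follows the difference, whose size then rests in part on values at background.

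In SCF-treated cells 2823 genes were higher and 2514 were lower than in C-titled cells, 24.6% and 21.9% of the genes tested. Kept within 1.5-fold were 3956 genes, 34.5%, of which 67 were also called, and 2246 were neither called nor kept. Counts over the gene lists below are to be read beside these shares. The differences were large for many genes: 1153 were over 2-fold higher and 741 over 2-fold lower among those called, and 80 and 65 passed 10-fold. The median over all genes was -0.01. With median scaling of the arrays in place of quantile normalization this median moved to 0.18, and 73.8% of the calls were higher in place of 52.9%, so small differences below are best read relative to the other genes.

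Without background correction, a setting that compresses differences, the medians of all 38 gene lists were closer to 0, while their counts of higher and of lower genes moved by at most 2.

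**Figure D1:**
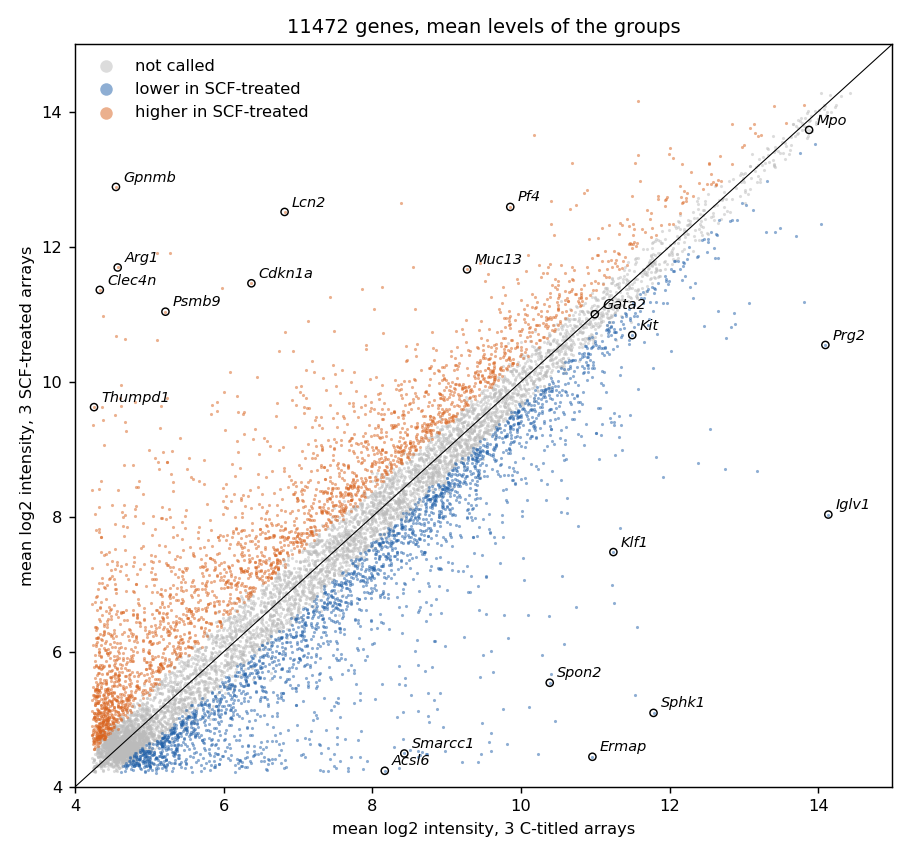
Mean normalized log2 intensity of 11472 genes on the 3 C-titled arrays (horizontal axis) and the 3 SCF-treated arrays (vertical axis), with 1 point per gene coloured by its call and a line of equal levels. The 2823 higher genes lie above the line and the 2514 lower genes below it, and circles mark genes described in the text.

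Detection split the groups further. Above background on all 3 C-titled arrays and on no SCF-treated array were 300 genes (2.62%), and 406 genes (3.54%) showed the reverse. Of the 300 genes, 199 were also below background on all U-titled arrays, and 102 of these were above background on all CD117- arrays. Of the 406 genes, 293 were above background on all U-titled arrays, and 217 of these on no CD117- array. The U-titled and SCF-treated arrays had been normalized by the authors as 1 set, with a median of 104 on each array in the processed values, and the CD117- and C-titled arrays as another, with medians of 93.4 to 93.5. No array of 1 condition lies in both sets. The array set and the treatment therefore cannot be told apart in this comparison. Nor can any difference in culture be told apart from them, since culture of the C-titled cells is not stated. The U-titled levels show which differences from C were also present in cells for which no SCF is given.

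The genes below are given with all 4 groups, since they differed between C-titled and both U-titled and treated cells. Thumpd1, a gene for an RNA-binding protein of tRNA modification, read 4.22, 4.23 and 4.31 on the C-titled arrays, 9.11, 8.92 and 9.08 on the U-titled and 9.69, 9.70 and 9.48 on the SCF-treated arrays, with a mean of 4.26 in CD117- cells. No C-titled array was above background, and the U-titled and treated arrays all were. Smarcc1, a core subunit of the SWI/SNF chromatin remodelling complex, read 8.30, 8.47 and 8.52 on the C-titled arrays, 4.23, 4.39 and 4.42 on the U-titled and 4.41, 4.59 and 4.48 on the SCF-treated arrays, with a mean of 7.83 in CD117- cells. Psmb9, an inducible immunoproteasome subunit, had means of 5.16 in CD117- and 5.22 in C-titled cells, and of 10.17 in U-titled and 11.04 in treated cells. The ribosomal protein gene Rps23 read 4.58, 4.34 and 4.25 on the C-titled arrays, 5.40, 5.06 and 6.00 on the U-titled and 6.41, 6.38 and 6.45 on the SCF-treated arrays, with a mean of 4.33 in CD117- cells and no C-titled array above background. The part of the array set in these differences was not tested.

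Kit itself was kept above background on every array, at a lower level. It read 11.39, 11.53 and 11.57 on the C-titled arrays, 10.39, 10.17 and 10.06 on the U-titled and 10.72, 10.74 and 10.61 on the SCF-treated arrays, and was 1.75-fold lower in SCF-treated than in C-titled cells (log2 difference -0.81, standard error 0.15, adjusted p = 0.000308, n = 3 arrays per group). The treated and C-titled arrays did not overlap. The mean on the CD117- arrays was 9.34, and every CD117- array lay below every treated array. A second, dim Kit probe gave a log2 difference of -1.47.

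Of 24 measured genes of stem and progenitor cells, 10 were higher, 3 were lower, 4 were kept and 7 were neither, with a median log2 difference of 0.17, which ranged from 0.05 with no filter on dim probes to 0.35 with median scaling. Gata2, a transcription factor of stem cells and of the mast cell and basophil lineages, was kept. It read 10.94, 11.03 and 11.02 on the C-titled arrays, 11.23, 10.82 and 11.15 on the U-titled and 10.98, 10.80 and 11.22 on the SCF-treated arrays. The difference was 0.00 (95% interval -0.35 to 0.36), while C-titled cells exceeded CD117- cells, which averaged 7.73, by 3.26. Lmo2, a bridging factor of stem cell and erythroid transcription complexes, was kept at 0.09 (95% interval -0.15 to 0.33), and Cd93, a surface glycoprotein of early progenitors, at 0.08, although another Cd93 probe was higher, by 1.07.

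Muc13, a membrane mucin found on progenitors, was higher, at 9.25, 9.22 and 9.35 on the C-titled arrays, 10.64, 10.76 and 11.04 on the U-titled and 11.68, 11.47 and 11.83 on the SCF-treated arrays (log2 difference 2.39, standard error 0.22, adjusted p = 1.21e-07). Hoxa7, a homeobox gene of early progenitors, read 6.75, 6.50 and 6.70 on the C-titled arrays, 6.99, 7.03 and 7.50 on the U-titled and 8.64, 8.54 and 8.85 on the SCF-treated arrays (log2 difference 2.03, standard error 0.19, adjusted p = 1.48e-07). Cd34, a sialomucin of progenitors, read 7.01, 7.00 and 7.00 on the C-titled arrays, 6.87, 7.00 and 7.08 on the U-titled and 7.95, 7.93 and 8.40 on the SCF-treated arrays (log2 difference 1.09, standard error 0.17, adjusted p = 5.84e-05). In these 3 genes every treated array lay above every C-titled and every U-titled array, and the treated cells exceeded the U-titled cells by 0.85 for Muc13 (adjusted p = 0.00774) and 1.11 for Cd34 (adjusted p = 0.000153). For Hoxa7 the means were 8.68 and 7.17 (adjusted p = 2.53e-05). Adgrg1, an adhesion receptor of stem cells, was above background on no C-titled array and at least 1.58-fold higher. Another, dim Adgrg1 probe was above background on 2 of 3 C-titled arrays and no treated array, and gave -0.22, which did not pass.

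Lower in treated cells, besides Kit, were Myb and Tal1. Myb, a transcription factor that keeps progenitors dividing, read 7.16, 7.54 and 7.15 on the C-titled arrays, 5.42, 5.33 and 5.48 on the U-titled and 5.57, 5.51 and 5.92 on the SCF-treated arrays (log2 difference -1.62, standard error 0.17, adjusted p = 8.24e-07). Its other probe, dim and above background on all treated arrays and no C-titled array, gave 1.47, so the 2 probes disagree. Tal1, a basic helix-loop-helix factor of stem and erythroid cells, read 10.14, 10.16 and 10.06 on the C-titled arrays, 10.08, 9.82 and 10.06 on the U-titled and 9.20, 9.32 and 9.66 on the SCF-treated arrays (log2 difference -0.73, standard error 0.14, adjusted p = 0.000407), and here the U-titled arrays stayed close to the C-titled ones.

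The 8 genes with the largest excess of C-titled over CD117- cells give a view of what CD117 selection had enriched. Gata2 was kept, and Psmb1, a proteasome subunit, read 11.58, 11.58 and 11.57 on the C-titled arrays, 11.37, 11.42 and 11.49 on the U-titled and 11.70, 11.84 and 11.97 on the SCF-treated arrays, a difference of 0.26 that was neither called nor inside 1.5-fold. Csrp3, a LIM-domain protein, fell in part, from 9.29, 9.25 and 9.46 to 8.00, 8.08 and 8.27 (log2 difference -1.22, standard error 0.21, adjusted p = 0.000172). The remaining 5 fell furthest. Spon2, a secreted matrix protein, read 10.38, 10.27 and 10.51 on the C-titled arrays, 8.28, 8.73 and 8.45 on the U-titled and 5.52, 5.38 and 5.73 on the SCF-treated arrays (log2 difference -4.85, standard error 0.25, adjusted p = 1.12e-10), and its other probe was near background and gave 0.06, which did not pass. The treated cells were also below the U-titled cells, by a log2 difference of -2.95 (adjusted p = 7.33e-07).

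Acsl6, a long-chain acyl-CoA synthetase, read 8.31, 8.12 and 8.08 on the C-titled arrays, 4.22, 4.35 and 4.44 on the U-titled and 4.23, 4.29 and 4.20 on the SCF-treated arrays, with no treated array above background, so it was at least 11.5-fold lower. Such bounds set the mean of the brighter group against the dimmest signal above background on each array of the other. Atp1b2, a sodium pump subunit, fell by 4.80, Mst1r, the receptor of macrophage-stimulating protein, by 3.70, and Slc22a13b, an organic anion transporter, by 2.84. All 4 of these were also low in U-titled cells, with means of 4.34, 5.07, 4.66 and 6.36.

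**Figure D2:**
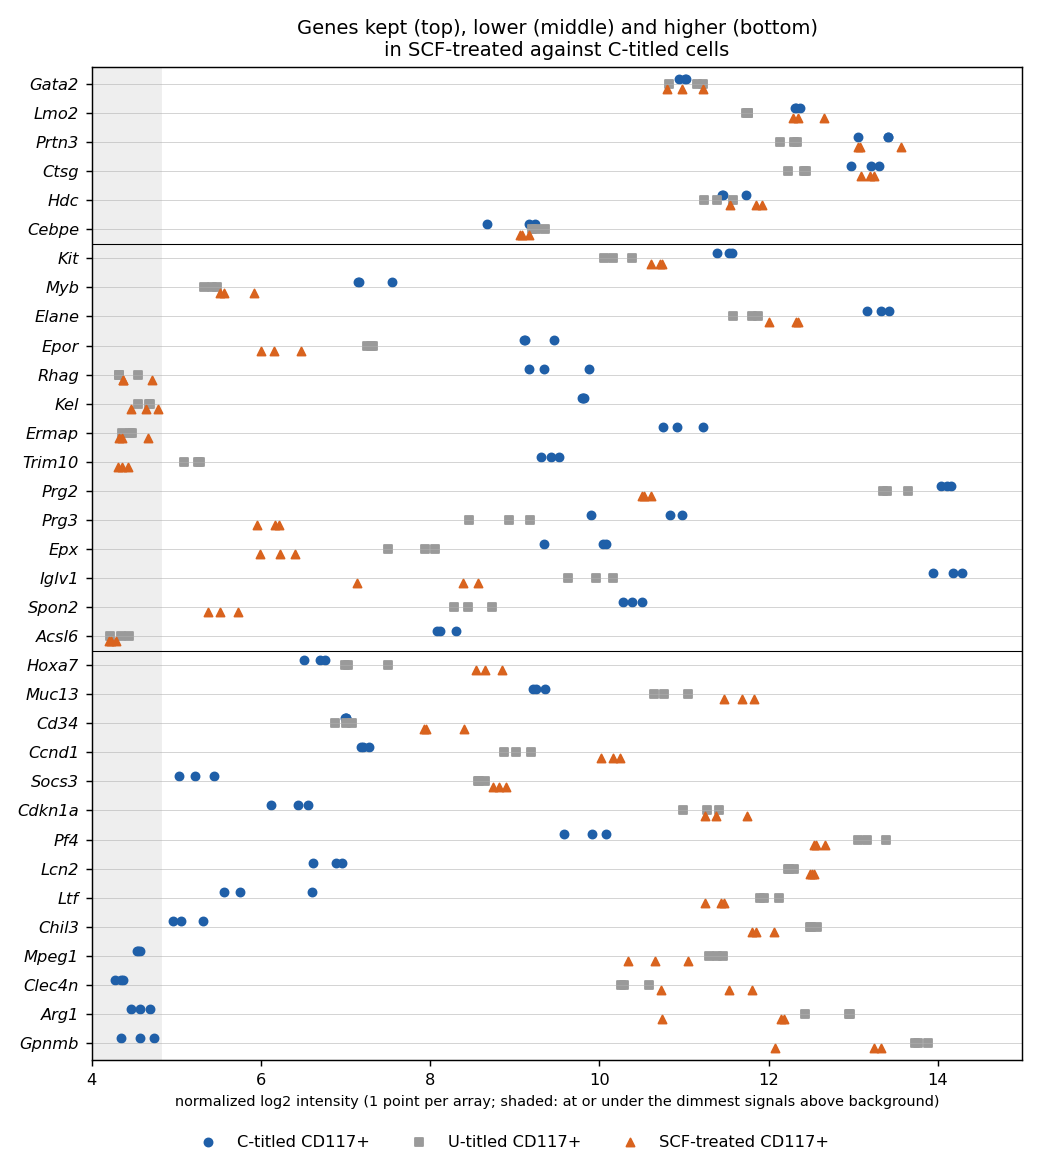
Normalized log2 intensity (horizontal axis) of 34 genes on the 3 C-titled, 3 U-titled and 3 SCF-treated arrays, with 1 point per array. Kept genes are at the top, where treated and C-titled arrays lie together, lower genes in the middle and higher genes at the bottom, and the shading reaches the highest of the arrays' dimmest signals above background.

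Among the 38 gene lists the erythroid list held the largest share of lower genes. Of 32 measured erythroid genes 29 were lower, 1 was higher, 1 was kept and 1 was neither, with a median log2 difference of -2.52, while 21.9% of all genes were lower. The list median was -2.59, -2.60 and -2.30 on the 3 treated arrays relative to the mean of the C-titled arrays. It was -2.02 in U-titled cells. In bulk samples like these, fewer cells of a type and less RNA per cell cannot be told apart.

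Promoters of 3 of the lower genes are shown because the members moved together and GATA factors, whose motif includes the form AGATAA, are known regulators of erythroid genes. The windows are the 250 bases before the start site in RefSeq (GRCm38.p6), on the gene's strand, and this form, AGATAA or the same word on the other strand, TTATCT, is in capitals. Other forms of the motif were neither marked nor counted.
Kel, chr6:41704326-41704575, minus strand: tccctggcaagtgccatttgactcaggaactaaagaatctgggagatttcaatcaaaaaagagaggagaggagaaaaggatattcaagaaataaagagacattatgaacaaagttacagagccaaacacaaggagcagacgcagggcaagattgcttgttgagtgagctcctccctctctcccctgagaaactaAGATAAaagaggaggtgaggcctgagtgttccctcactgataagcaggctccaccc
Trim10, chr17:36869324-36869573, plus strand: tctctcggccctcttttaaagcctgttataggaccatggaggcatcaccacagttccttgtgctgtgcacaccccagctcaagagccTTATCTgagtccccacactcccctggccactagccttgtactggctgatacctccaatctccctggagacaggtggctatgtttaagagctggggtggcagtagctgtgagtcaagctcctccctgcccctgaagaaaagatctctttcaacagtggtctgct
Epor, chr9:21963577-21963826, minus strand: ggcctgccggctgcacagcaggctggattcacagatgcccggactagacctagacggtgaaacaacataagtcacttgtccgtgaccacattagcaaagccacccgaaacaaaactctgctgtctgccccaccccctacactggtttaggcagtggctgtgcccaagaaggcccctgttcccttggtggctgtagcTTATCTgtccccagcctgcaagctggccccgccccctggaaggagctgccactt
Of 23 erythroid members with a window, 5 held at least 1 of these 2 words, and 9.99% of all 32851 windows did. The 3 genes shown are among these 5, so they do not represent the list. The marked word stood 56 to 51 bases before the start in Kel, 163 to 158 in Trim10 and 54 to 49 in Epor. A match is a description of letters and not a site in use.

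Ermap, an erythroid membrane protein of the Scianna blood group, read 11.22, 10.92 and 10.75 on the C-titled arrays, 4.46, 4.48 and 4.36 on the U-titled and 4.35, 4.32 and 4.66 on the SCF-treated arrays (log2 difference -6.52, standard error 0.26, adjusted p = 3.76e-12, 1 of 3 treated arrays above background). The treated arrays were at background on 2 of 3 arrays. Kel, the Kell blood group endopeptidase, read 9.79, 9.82 and 9.80 on the C-titled arrays, 4.69, 4.55 and 4.68 on the U-titled and 4.65, 4.47 and 4.78 on the SCF-treated arrays (log2 difference -5.17, standard error 0.15, adjusted p = 6.24e-14, 1 of 3 treated arrays above background), with treated and U-titled arrays all near background. Rhag, the Rh-associated ammonia channel, read 9.35, 9.17 and 9.87 on the C-titled arrays, 4.32, 4.33 and 4.54 on the U-titled and 4.37, 4.37 and 4.72 on the SCF-treated arrays (log2 difference -4.98, standard error 0.26, adjusted p = 1.43e-10, 1 of 3 treated arrays above background), and both other Rhag probes fell by more than 4. Trim10, a gene of terminal erythroid maturation, read 9.42, 9.31 and 9.52 on the C-titled arrays, 5.09, 5.28 and 5.26 on the U-titled and 4.36, 4.43 and 4.31 on the SCF-treated arrays, and was at least 27.3-fold lower. Unlike the other 3, it was above background on every U-titled array.

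Upstream genes were lower but still present. Epor, the receptor of erythropoietin, read 9.46, 9.12 and 9.10 on the C-titled arrays, 7.30, 7.26 and 7.32 on the U-titled and 6.01, 6.16 and 6.48 on the SCF-treated arrays (log2 difference -3.02, standard error 0.16, adjusted p = 1.87e-10), with the treated arrays also below the U-titled ones, by 1.08 (adjusted p = 0.000128). Gata1, the main erythroid and megakaryocyte GATA factor, read 8.79, 8.40 and 8.44 on the C-titled arrays, 8.27, 8.03 and 8.22 on the U-titled and 6.89, 6.57 and 7.78 on the SCF-treated arrays (log2 difference -1.47, standard error 0.24, adjusted p = 8.95e-05), and SCF3 was the highest of the treated arrays. Klf1, a zinc finger factor that switches on adult β-globin, and named here after its values were seen, read 11.39, 11.10 and 11.24 on the C-titled arrays, 7.14, 7.08 and 7.11 on the U-titled and 7.41, 7.31 and 7.72 on the SCF-treated arrays (log2 difference -3.77, standard error 0.13, adjusted p = 7.82e-13). The exceptions were Tfrc, the transferrin receptor of dividing cells, and Bpgm, the enzyme of 2,3-bisphosphoglycerate. Tfrc rose from 11.63, 11.62 and 11.77 to 12.23, 12.17 and 12.25 (log2 difference 0.55, standard error 0.14, adjusted p = 0.00398) and was highest in U-titled cells (mean 13.06). Bpgm was kept at -0.12, but it was dim in both groups, with means of 5.01 in C-titled and 4.89 in treated cells.

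Of 17 haem synthesis and breakdown genes, 11 were lower, 3 were higher and 2 were kept. Cpox, Ppox and Uros, enzymes of the pathway to protoporphyrin, fell by 2.03 (2 of 3 treated arrays above background), 2.45 and 1.98, and Blvrb, a biliverdin reductase abundant in red cells, by 2.01. The 3 that rose were genes used outside red cells. Hmox1, the inducible haem oxygenase that degrades haem, rose by 2.43, Hmox2, its constitutive form, by 0.45, and Alas1, the housekeeping form of the first enzyme, by 0.35. The call of Alas1 was lost when 1 array was left out. Hmox1 read 7.51, 7.61 and 7.42 on the C-titled arrays, 11.77, 11.80 and 11.31 on the U-titled and 10.32, 10.45 and 9.05 on the SCF-treated arrays, with SCF3 the lowest of the treated arrays.

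Eosinophil granule genes were lower in the treated cells than in both C-titled and U-titled cells. Of 12 measured eosinophil genes 7 were lower, 2 were higher and 3 were kept, with a median of -1.96 against -0.27 for U-titled cells. This median was -0.995 with the mean of all probes, -1.15 without background correction and 0.00 with no filter on dim probes, over 17 genes. Prg2, the major basic protein of eosinophil granules, read 14.10, 14.15 and 14.04 on the C-titled arrays, 13.40, 13.35 and 13.65 on the U-titled and 10.52, 10.50 and 10.60 on the SCF-treated arrays (log2 difference -3.55, standard error 0.10, adjusted p = 5e-14). Prg3, its homologue, read 10.84, 10.98 and 9.90 on the C-titled arrays, 8.93, 8.46 and 9.18 on the U-titled and 6.17, 5.95 and 6.21 on the SCF-treated arrays (log2 difference -4.46, standard error 0.23, adjusted p = 1.05e-10). Epx, eosinophil peroxidase, read 10.04, 10.08 and 9.35 on the C-titled arrays, 7.94, 7.50 and 8.06 on the U-titled and 6.23, 5.99 and 6.41 on the SCF-treated arrays (log2 difference -3.61, standard error 0.20, adjusted p = 1.78e-10). In all 3 the treated arrays lay below every U-titled array, and these below every C-titled array.

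Against the U-titled cells the treated cells were lower by 2.92 for Prg2 (adjusted p = 8.56e-12), 2.74 for Prg3 (adjusted p = 6.83e-07) and 1.63 for Epx (adjusted p = 1.68e-05). Ear6, an eosinophil-associated ribonuclease of a family of near-identical copies that a probe may not separate, fell by 4.03 from C-titled cells. Rnase2a, another ribonuclease of this family, and S100a10, an annexin partner found in many cells, were the members that rose, by 1.17 and 0.93. The genes kept were Cebpe, a factor of granulocyte maturation whose 3 other probes gave 1.21, -0.76 and -0.20, Xbp1, a factor of secretory cells, and Ccr3, the eotaxin receptor, although Ccr3 was barely above background in both groups (5.00, 4.76 and 4.42 and 4.90, 4.73 and 4.63). Levels of Prg2, Prg3 and Epx in CD117- cells were 14.21, 11.87 and 10.92, so these were not features that CD117 selection had enriched.

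Lymphoid genes were lower more often than higher. Among B cell genes 9 of 17 were lower and 3 were higher, and among genes of T and natural killer cells 9 of 17 were lower and 2 were higher. With median scaling the lower counts were 6 and 4, and no B cell gene stayed higher in at least 1 of the fits with an array left out. Immunoglobulin variable segments, which belong to neither list, were among the 10 largest fitted decreases. Iglv1, a lambda light chain variable segment, read 13.95, 14.18 and 14.28 on the C-titled arrays, 10.16, 9.62 and 9.96 on the U-titled and 8.57, 8.39 and 7.14 on the SCF-treated arrays (log2 difference -6.11, standard error 0.26, adjusted p = 7.67e-12), and SCF3 was lowest. Igkv3-2 read 12.11, 11.03 and 11.56 on the C-titled arrays, 7.37, 7.76 and 7.47 on the U-titled and 7.18, 6.77 and 5.16 on the SCF-treated arrays (log2 difference -5.20, standard error 0.44, adjusted p = 4.88e-08) and Ighv7-3 read 9.67, 9.38 and 9.72 on the C-titled arrays, 4.37, 5.64 and 5.17 on the U-titled and 4.71, 4.35 and 4.51 on the SCF-treated arrays (log2 difference -5.07, standard error 0.25, adjusted p = 4.94e-11, 1 of 3 treated arrays above background). Variable segments resemble each other, so these probes may report relatives of the named segment. Pou2af1, a B cell coactivator, fell by 2.04, and Igll1, the surrogate light chain of precursor B cells, was at least 2.89-fold lower, with no treated array above background. Cd3e and Cd3g, chains of the T cell receptor complex, fell by 0.95 and 1.39.

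Genes of marrow stroma and endothelium fell in 12 of 18 and rose in 2. Cxcl12, the chemokine that holds progenitors in the niche, read 10.06, 10.38 and 10.23 on the C-titled arrays, 4.63, 4.42 and 4.42 on the U-titled and 4.33, 4.39 and 4.75 on the SCF-treated arrays (log2 difference -5.73, standard error 0.17, adjusted p = 1.22e-13, 1 of 3 treated arrays above background). Igfbp5, a binding protein of insulin-like growth factors, fell by 3.70 (1 of 3 treated arrays above background), and Vcam1, an adhesion molecule of stroma and resident macrophages, by 3.54. Bglap, the bone matrix protein osteocalcin, was above background on no treated array and at least 7.58-fold lower. All 4 were also low in U-titled cells, with means of 4.49, 4.66, 6.42 and 4.40.

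Among the 10 largest fitted decreases, Sphk1, Slc38a5 and Csrp1 belong to none of the lists. Sphk1, sphingosine kinase, read 11.90, 11.68 and 11.77 on the C-titled arrays, 5.50, 4.82 and 5.06 on the U-titled and 5.29, 5.27 and 4.73 on the SCF-treated arrays (log2 difference -6.69, standard error 0.19, adjusted p = 6.62e-14), and its other detected probe fell by 1.08 near background. Slc38a5, a glutamine transporter prominent in erythroid cells, read 11.62, 11.47 and 11.51 on the C-titled arrays, 5.77, 5.51 and 5.72 on the U-titled and 5.45, 5.28 and 5.36 on the SCF-treated arrays (log2 difference -6.17, standard error 0.14, adjusted p = 4.63e-15). Csrp1, a LIM-domain protein of the actin cytoskeleton, fell by 5.48 (1 of 3 treated arrays above background), and SCF3 was the array above background, at 5.82.

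Of the genes lost to below background, the largest bound after Trim10 was that of Paqr9, a membrane receptor of the progestin and adipoQ family, at least 23.6-fold. Myl9, a myosin light chain of contractile and platelet cells, was at least 20.1-fold lower, although it was above background on every U-titled array (mean 6.62). Asb17os was at least 16.9-fold lower, Tspo2, an erythroid cholesterol-binding protein, at least 15.9-fold, Plpp1, a phosphatidic acid phosphatase, at least 15.7-fold and Myh10, a non-muscle myosin heavy chain, at least 14.5-fold.

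Genes of granulocyte precursors were divided, and of the primary granule proteases Prtn3 and Ctsg were kept while Elane was lower. Of 22 measured genes 6 were kept, 9 were higher, 3 were lower and 4 were neither, with a median of 0.05, which was -0.04 without C-3. Prtn3, proteinase 3, read 13.41, 13.41 and 13.05 on the C-titled arrays, 12.34, 12.13 and 12.30 on the U-titled and 13.08, 13.06 and 13.56 on the SCF-treated arrays, a difference of -0.06 (95% interval -0.39 to 0.27). Ctsg, cathepsin G, read 13.21, 13.30 and 12.98 on the C-titled arrays, 12.42, 12.23 and 12.45 on the U-titled and 13.09, 13.25 and 13.20 on the SCF-treated arrays, a difference of 0.02 (95% interval -0.23 to 0.26). In both genes the treated arrays overlapped the C-titled ones and lay above every U-titled array.

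Mpo, myeloperoxidase, was kept on its brightest probe (-0.15, 95% interval -0.35 to 0.05). Its other 3 probes gave 0.08, -0.83 and -0.64, so the call depends on the probe. Elane, neutrophil elastase, was lower, at 13.32, 13.42 and 13.16 on the C-titled arrays, 11.80, 11.58 and 11.88 on the U-titled and 12.32, 12.00 and 12.35 on the SCF-treated arrays (log2 difference -1.08, standard error 0.13, adjusted p = 2.95e-06), and Fcnb, ficolin B, fell by 1.28. The members that rose most were not granule proteases: Dmkn, Anxa1, the glucocorticoid-induced annexin of myeloid cells, Fcgr3, an IgG receptor, and Cst7, a cystatin, rose by 1.38, 2.61, 1.97 and 1.06.

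Genes of mature neutrophils were largely gained. Of 29 measured genes 21 were higher, none was lower and 4 were kept, with a median of 2.26 (2.45, 2.21 and 1.92 on the 3 treated arrays), while 24.6% of all genes were higher. The median was 0.94 without background correction and 1.32 with an offset of 50. Lcn2, lipocalin of the secondary granules, read 6.89, 6.96 and 6.61 on the C-titled arrays, 12.30, 12.22 and 12.25 on the U-titled and 12.51, 12.53 and 12.49 on the SCF-treated arrays (log2 difference 5.69, standard error 0.11, adjusted p = 6.73e-16). Ltf, lactoferrin, read 5.75, 6.61 and 5.56 on the C-titled arrays, 11.90, 12.12 and 11.94 on the U-titled and 11.47, 11.25 and 11.43 on the SCF-treated arrays (log2 difference 5.41, standard error 0.19, adjusted p = 8.62e-13). Camp, the cathelicidin of the same granules, read 4.98, 5.09 and 5.24 on the C-titled arrays, 11.21, 11.20 and 11.47 on the U-titled and 10.73, 10.74 and 10.38 on the SCF-treated arrays (log2 difference 5.51, standard error 0.14, adjusted p = 1.57e-14). Fpr2, a formyl peptide receptor, read 4.40, 4.76 and 4.84 on the C-titled arrays, 9.59, 9.57 and 9.55 on the U-titled and 10.83, 11.01 and 10.06 on the SCF-treated arrays (log2 difference 5.97, standard error 0.19, adjusted p = 2.64e-13, 2 of 3 C-titled arrays above background). The treated arrays were far above all C-titled arrays in each. U-titled cells were also far above C-titled cells, and CD117- cells had the highest levels, with means of 14.12, 14.13, 13.58 and 13.18. Chil1, a chitinase-like protein of neutrophils, was above background on no C-titled array and at least 31.5-fold higher.

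Monocyte and macrophage genes rose in 24 of 36, fell in 7 and were kept in 3. The list median was 1.60 on SCF1, 1.92 on SCF2 and 0.92 on SCF3, and 1.95 in U-titled cells, so SCF3 stood below the other 2. Over the group the median was 1.62, and 0.84 without background correction. Clec4n, the fungal pattern receptor dectin-2, read 4.28, 4.37 and 4.35 on the C-titled arrays, 10.29, 10.59 and 10.26 on the U-titled and 11.53, 11.81 and 10.73 on the SCF-treated arrays, and was at least 105-fold higher. Mpeg1, the pore-forming perforin-2 of macrophages, read 4.53, 4.57 and 4.54 on the C-titled arrays, 11.39, 11.46 and 11.29 on the U-titled and 10.65, 11.04 and 10.33 on the SCF-treated arrays, and was at least 65.1-fold higher, although its other, dim probe did not pass (0.18). In both genes no C-titled array was above background. Csf1r, the receptor of macrophage colony-stimulating factor, read 7.12, 7.50 and 7.31 on the C-titled arrays, 9.92, 10.07 and 9.80 on the U-titled and 8.90, 9.48 and 8.77 on the SCF-treated arrays (log2 difference 1.74, standard error 0.22, adjusted p = 6.58e-06).

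The 7 lower members included genes of resident and inflammatory monocytes. Vcam1 is given above. Axl, a receptor tyrosine kinase for apoptotic cells, fell by 1.98, Irf8, a factor of monocyte and dendritic cell fate, by 1.69, and Ccr2, the chemokine receptor of classical monocytes, was at least 3.36-fold lower, with no treated array above background. C1qa and Cd36 were kept, at 0.16 and 0.13. Timd4 also counted as kept, at -0.01, but its means were at background, 4.53 in C-titled and 4.52 in treated cells. The dimmest signals above background on these arrays were 4.63 to 4.67.

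Genes that mark alternative activation of macrophages rose in 14 of 19 and fell in 2. Arg1, arginase 1, read 4.46, 4.69 and 4.57 on the C-titled arrays, 12.95, 12.96 and 12.43 on the U-titled and 12.15, 12.18 and 10.74 on the SCF-treated arrays (log2 difference 7.12, standard error 0.28, adjusted p = 2.75e-12, 1 of 3 C-titled arrays above background). Chil3, a chitinase-like secreted protein, read 5.05, 5.32 and 4.95 on the C-titled arrays, 12.49, 12.57 and 12.50 on the U-titled and 11.85, 12.06 and 11.80 on the SCF-treated arrays (log2 difference 6.80, standard error 0.16, adjusted p = 7.94e-15), and Chil4, a close relative that its probe may not separate, rose by 6.62. Ccl24, an eotaxin, rose by 5.16 (1 of 3 C-titled arrays above background). All treated arrays exceeded all C-titled arrays, SCF3 was lowest for Arg1, and the U-titled arrays were higher still for Arg1 and Chil3. Irf4 fell by 0.72, Alox15, a lipoxygenase, was at least 3.16-fold lower, and Fabp4 and Pparg were kept, at 0.04 and 0.08.

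Gpnmb, a transmembrane glycoprotein of lipid-laden macrophages, was among the 10 largest fitted increases. It read 4.35, 4.73 and 4.57 on the C-titled arrays, 13.77, 13.89 and 13.73 on the U-titled and 13.25, 13.33 and 12.07 on the SCF-treated arrays (log2 difference 8.33, standard error 0.30, adjusted p = 1.05e-12, 1 of 3 C-titled arrays above background), with SCF3 more than 1 unit below the other treated arrays, and all 3 of its other probes were higher too (2.80, 4.09 and 2.75). Of 19 genes of macrophage lipid handling 11 rose and 2 fell. Npc2, a cholesterol carrier of the lysosome, rose by 1.80, and Fabp5, a fatty acid carrier, was at least 4.94-fold higher, with no C-titled array above background. Lipa, the lysosomal acid lipase, went the other way, at 8.51, 8.59 and 8.15 on the C-titled arrays, 6.02, 6.11 and 5.75 on the U-titled and 4.88, 5.34 and 5.09 on the SCF-treated arrays (log2 difference -3.31, standard error 0.32, adjusted p = 2.71e-07), and Abcg1, a cholesterol exporter, fell by 0.76.

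Of 36 genes for lysosomal enzymes and the proton pump 27 rose and 2 fell. Lgmn, legumain, rose by 2.46, Ctsb and Ctss, cathepsins B and S, by 2.27 and 3.33 (2 of 3 C-titled arrays above background), and Atp6v1d, a pump subunit, by 4.06. Lipa and Ctsh, cathepsin H (-0.95), were the exceptions, and Gaa, acid α-glucosidase, was kept at 0.00. The U-titled median was higher than the treated one, 1.24 against 0.80.

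Genes of dendritic cells and MHC class II presentation rose in 14 of 23 and fell in 6. H2-Ab1, the β chain of the class II molecule, read 7.73, 7.38 and 7.20 on the C-titled arrays, 11.26, 11.50 and 11.18 on the U-titled and 11.34, 11.12 and 11.29 on the SCF-treated arrays (log2 difference 3.81, standard error 0.18, adjusted p = 4.22e-11). Ciita, the coactivator that switches class II genes on, was at least 5.14-fold higher, and H2-Aa, the α chain, at least 4.24-fold, neither being above background on a C-titled array. H2-Eb1, another β chain, fell by 1.22, from 7.57 to 6.35, with 5.67 in U-titled cells. Zbtb46, a dendritic cell factor, fell by 1.98 (1 of 3 treated arrays above background), and Clec9a, a receptor of cross-presenting dendritic cells, was at least 4.34-fold lower, with no treated array above background.

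Among 33 genes for inflammatory cytokines, chemokines and their receptors 26 rose and 4 fell. Ccl7, a monocyte chemoattractant, read 4.32, 4.43 and 4.35 on the C-titled arrays, 11.34, 11.49 and 10.89 on the U-titled and 11.46, 11.82 and 9.64 on the SCF-treated arrays, and was at least 80.2-fold higher. Ccl2, the main monocyte chemoattractant, read 4.27, 4.25 and 4.21 on the C-titled arrays, 8.60, 8.82 and 8.60 on the U-titled and 9.63, 10.35 and 8.11 on the SCF-treated arrays, and was at least 26.3-fold higher. Both were below background on all C-titled arrays and lowest among treated arrays on SCF3. Ccl6 rose by 3.91. The 4 that fell were Ccl5 (-0.77) and the receptors Ccr2, Cxcr3 (from 5.39 to 4.63, 1 of 3 treated arrays above background) and Cxcr4, the receptor of Cxcl12 (-0.65). The calls of Ccl5 and Cxcr4 were lost when 1 array was left out, and under the replicate block.

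Of 31 interferon-response genes 15 rose and 5 fell. Besides Psmb9, Ifitm1, a membrane protein that blocks virus entry, rose by 2.58, Oasl2 by 2.17 and Gbp2, a guanylate-binding protein, by 2.62. Oasl1, Mx2, Rsad2 and Irf7 were among those that fell, by 1.96 (2 of 3 treated arrays above background), 0.68, 0.69 and 0.69, and the call of Rsad2 was lost when 1 array was left out. The U-titled median of the list was -0.01, against 0.39 in treated cells, which ranged from 0.19 without background correction to 0.68 with the 6 arrays normalized and fitted alone.

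**Figure D3:**
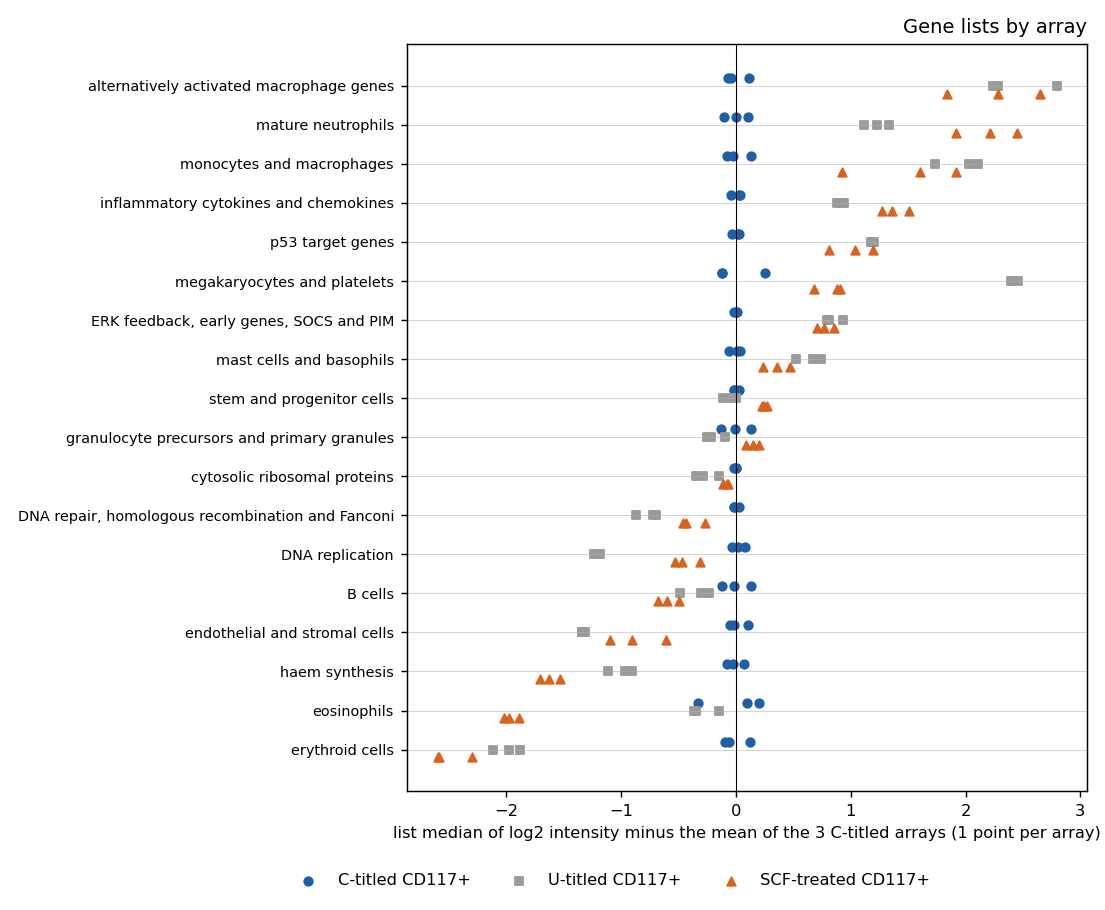
Median over the members of 18 gene lists of the log2 intensity minus the mean of the 3 C-titled arrays (horizontal axis), with 1 point for each C-titled, U-titled and SCF-treated array. Erythroid genes lie lowest on the treated arrays (-2.60 to -2.30), and neutrophil and macrophage genes are high on treated and U-titled arrays. Eosinophil genes are far lower on treated (-2.02 to -1.89) than on U-titled arrays (-0.37 to -0.15), which lie slightly below the C-titled mean.

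Megakaryocyte and platelet genes rose in 21 of 32 and fell in 5, and none was kept. The median was 0.90, against 2.43 in U-titled cells, and 0.57 without background correction. Pf4, platelet factor 4, read 10.08, 9.91 and 9.58 on the C-titled arrays, 13.06, 13.16 and 13.38 on the U-titled and 12.67, 12.56 and 12.53 on the SCF-treated arrays (log2 difference 2.73, standard error 0.28, adjusted p = 4.07e-07). Selp, the platelet adhesion receptor P-selectin, read 6.14, 6.24 and 5.60 on the C-titled arrays, 9.82, 9.95 and 9.54 on the U-titled and 8.55, 8.13 and 8.02 on the SCF-treated arrays (log2 difference 2.24, standard error 0.22, adjusted p = 3.27e-07). Plek, pleckstrin, rose by 2.83 and F2r, a thrombin receptor, by 1.73. Tubb1, the β-tubulin of platelets, was lower, at 11.25, 11.79 and 11.36 on the C-titled arrays, 12.06, 12.08 and 12.26 on the U-titled and 9.66, 9.90 and 8.97 on the SCF-treated arrays (log2 difference -1.95, standard error 0.30, adjusted p = 3.87e-05), and both its dim probes fell as well. The treated arrays lay below the U-titled arrays in Selp, by 1.54 (adjusted p = 8.66e-05), and in Tubb1, by 2.62 (adjusted p = 9.56e-06), and the difference for Pf4, -0.61, did not pass (adjusted p = 0.112). Alox12, the platelet lipoxygenase, and Pdlim1 fell by 1.17 and 0.71.

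Mast cell and basophil genes were divided, with 17 of 32 higher, 6 lower and 5 kept. Hdc, the enzyme that makes histamine, read 11.45, 11.73 and 11.46 on the C-titled arrays, 11.39, 11.24 and 11.58 on the U-titled and 11.92, 11.54 and 11.85 on the SCF-treated arrays, a difference of 0.22 (95% interval -0.04 to 0.49), and was kept, as Gata2 and Ctsg were. Fcer1a, the α chain of the IgE receptor, read 10.69, 10.78 and 10.88 on the C-titled arrays, 10.59, 10.57 and 10.53 on the U-titled and 9.43, 9.55 and 9.72 on the SCF-treated arrays (log2 difference -1.22, standard error 0.13, adjusted p = 9.77e-07). Prss34, a serine protease of basophils, read 13.47, 13.40 and 13.37 on the C-titled arrays, 12.60, 12.66 and 12.83 on the U-titled and 12.05, 12.03 and 12.58 on the SCF-treated arrays (log2 difference -1.19, standard error 0.14, adjusted p = 2.55e-06). Both remained well above the CD117- means of 7.78 and 10.65. Il4, the cytokine interleukin-4, and Cd200r3, a basophil and mast cell receptor, fell by 1.00 and 0.96. Csf2rb2, the β chain of the mouse interleukin-3 receptor, rose, at 5.96, 5.80 and 5.74 on the C-titled arrays, 9.71, 8.93 and 8.99 on the U-titled and 9.29, 9.69 and 9.56 on the SCF-treated arrays (log2 difference 3.68, standard error 0.21, adjusted p = 3.07e-10), and Ltc4s, leukotriene C4 synthase, Lat, an adaptor of antigen receptors, and Ccl4 rose by 1.83, 2.44 and 3.52.

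Receptors for other haematopoietic cytokines rose in 10 of 30, fell in 5 and were kept in 8. These counts were near the 24.6% higher, 21.9% lower and 34.5% kept over all genes. Csf2rb, the common β chain, rose by 1.83, and Il1r2, the decoy receptor of interleukin-1, was at least 8.88-fold higher, with no C-titled array above background. Besides Epor and Kit, Ifngr1 and Ifnar2, receptors of interferons, fell by 0.86 and 0.57, the call of Ifnar2 being lost when 1 array was left out. Csf2ra, Il13ra1 and Il2rg were kept, at -0.15, 0.01 and -0.02. Il2rg was dim in both groups, with means of 5.14 in C-titled and 5.13 in treated cells.

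Genes that Kit signalling is known to reach, through ERK and STAT5, rose in 21 of 32, and none fell. Socs3, a feedback inhibitor of cytokine receptors, read 5.03, 5.45 and 5.23 on the C-titled arrays, 8.57, 8.58 and 8.64 on the U-titled and 8.89, 8.75 and 8.81 on the SCF-treated arrays (log2 difference 3.58, standard error 0.23, adjusted p = 1.82e-09). Ccnd1, cyclin D1, read 7.28, 7.20 and 7.18 on the C-titled arrays, 8.87, 9.19 and 9.02 on the U-titled and 10.16, 10.24 and 10.02 on the SCF-treated arrays (log2 difference 2.92, standard error 0.14, adjusted p = 4.82e-11), and both of its other probes rose by similar amounts (2.86 and 2.66). Ccnd1 separated treated from U-titled cells by 1.12 (adjusted p = 2.73e-05), and for Socs3 the difference of 0.22 did not pass (adjusted p = 0.536). Egr1, an immediate early factor, rose by 2.24 and Ier3 by 3.05. Ccnd2 and Ccnd3, the other D cyclins, were kept, at -0.06 (95% interval -0.58 to 0.45) and -0.11 (95% interval -0.36 to 0.14), but only on their brightest probes. Other Ccnd2 probes gave -0.62, -0.13 and 0.17, of which the first passed, and another Ccnd3 probe rose by 1.34. The list median in U-titled cells was 0.84, against 0.77 in treated cells, which was 0.39 without background correction and 0.51 with an offset of 50.

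Targets of p53 rose in 19 of 25 and fell in 3. Cdkn1a, the p21 inhibitor of cyclin-dependent kinases, read 6.12, 6.56 and 6.44 on the C-titled arrays, 10.99, 11.27 and 11.41 on the U-titled and 11.37, 11.25 and 11.74 on the SCF-treated arrays (log2 difference 5.08, standard error 0.17, adjusted p = 2.98e-13), and both of its other probes rose by more than 4. Phlda3, an inhibitor of AKT, read 5.67, 6.22 and 5.85 on the C-titled arrays, 10.01, 9.70 and 9.75 on the U-titled and 9.58, 9.39 and 9.74 on the SCF-treated arrays (log2 difference 3.65, standard error 0.18, adjusted p = 5.7e-11). Zmat3, an RNA-binding target of p53, rose by 3.27 and Fas, a death receptor, by 2.21. The U-titled arrays lay at similar levels, apart from all C-titled arrays. Gadd45a and the repair genes Ddb2 and Xpc fell, by 1.23, 1.00 and 0.40, Xpc losing its call when 1 array was left out. Of 24 genes of the BCL2 family and survival 10 rose and 4 fell, among them the survival gene Bcl2a1b (3.35) and, on the lower side, the pro-apoptotic Bcl2l11 (-0.53) and Bid (-0.86) and the apoptosis inhibitors Birc2 (-0.89) and Birc5 (-0.41). The 3 other Birc2 probes gave 0.88, -0.49 and -1.23, so 1 went the opposite way.

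DNA replication genes were lower in 23 of 42, higher in 3 and kept in 9, with a median of -0.44 and of -1.23 in U-titled cells. With median scaling the lower count was 8 and the median -0.20, so most of these small decreases depend on the normalization. Tk1, thymidine kinase, fell by 1.10, Wdhd1, a replication fork protein, by 0.93 and Orc5, of the origin recognition complex, by 1.22. Pcna, the sliding clamp, rose, at 5.94, 5.89 and 5.63 on the C-titled arrays, 7.06, 7.15 and 7.31 on the U-titled and 7.47, 7.99 and 8.41 on the SCF-treated arrays (log2 difference 2.14, standard error 0.30, adjusted p = 1.88e-05). Mcm4, a helicase subunit, lay inside 1.5-fold at -0.36 and was also called. Uhrf1, a factor of maintenance methylation, was kept at 0.15.

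Of 39 mitosis genes 14 were lower, 7 were higher and 10 were kept, and with median scaling 4 were lower. Mki67, the proliferation marker, read 10.96, 11.11 and 10.85 on the C-titled arrays, 9.52, 9.36 and 9.49 on the U-titled and 10.33, 10.05 and 10.37 on the SCF-treated arrays (log2 difference -0.72, standard error 0.12, adjusted p = 0.00012), but its other probe, dim and above background on treated and not on C-titled arrays, rose by 0.84. Top2a, topoisomerase II, fell by 0.62 and Pttg1, securin, by 0.89. Ccna2, cyclin A2, was above background on no C-titled array and at least 3.13-fold higher, Cks2, a subunit of cyclin-dependent kinases, at least 2.94-fold, and Tpx2 rose by 1.53. Cdc20, an activator of anaphase, and Prc1, a spindle protein, were kept, at -0.24 and -0.27, although 1 of the other Cdc20 probes passed, at -0.71.

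The study used these arrays to look at DNA repair genes, so the genes it named are no independent evidence of a direction. Of 38 genes of homologous recombination and the Fanconi pathway 20 were lower and 4 were higher, with a median of -0.38. With median scaling 10 were lower and 8 higher, and the median was -0.12. Xrcc3, a gene of strand exchange in recombination, read 7.45, 7.50 and 7.28 on the C-titled arrays, 5.59, 5.20 and 5.28 on the U-titled and 5.93, 5.47 and 5.94 on the SCF-treated arrays (log2 difference -1.63, standard error 0.20, adjusted p = 2.95e-06). Brca2, a tumour suppressor of this pathway, read 7.62, 7.94 and 7.94 on the C-titled arrays, 6.72, 6.51 and 6.73 on the U-titled and 7.04, 7.29 and 7.12 on the SCF-treated arrays (log2 difference -0.69, standard error 0.18, adjusted p = 0.00424), and its other probe fell by 0.80, but the call was lost with median scaling. Brca1 was above background on no C-titled array and on all treated arrays, at 4.27, 4.49 and 4.37 and 4.77, 5.13 and 5.00, and was at least 1.25-fold higher. Ercc2, a helicase of nucleotide excision repair, read 7.60, 7.76 and 7.11 on the C-titled arrays, 6.74, 6.26 and 6.45 on the U-titled and 6.72, 6.75 and 7.14 on the SCF-treated arrays (log2 difference -0.62, standard error 0.24, adjusted p = 0.04), and was not called with median scaling, under the replicate block or in at least 1 fit with an array left out. Wrn, Mus81 and Mnd1 fell by 1.42, 1.68 and 1.51, Zswim7 rose by 0.66, and Rad50 and Mre11a, partners in the complex that binds broken ends, were kept, at -0.11 and -0.17.

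Excision repair genes were kept at least as often as they were called. Over all genes 34.5% were kept with or without a call, 24.6% were higher and 21.9% were lower. Of 35 nucleotide excision repair genes 17 were kept, 7 were lower and 6 higher. Of 23 base excision and mismatch repair genes 9 were kept, 6 were lower and 3 higher, with Ung, the uracil glycosylase, and Fen1, the flap endonuclease, lower by 0.94 and 0.74. The kept and lower shares of this list were near those over all genes. Of 26 end-joining and checkpoint genes 11 were lower, 3 were higher and 4 were kept, with Chek1, the checkpoint kinase, and Cdc25a, its phosphatase target, lower by 1.36 and 1.87. With median scaling the lower counts of these 3 lists were 1, 3 and 4, and their medians were 0.13, 0.14 and -0.13, so the direction of the first 2 turned. All 4 repair list medians were lower in U-titled than in treated cells, relative to C-titled cells: -0.75, -0.66, -0.39 and -0.61 for the U-titled cells in the order given, and -0.38, -0.13, -0.11 and -0.40 for the treated cells.

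Among the 38 lists the ribosomal proteins and the respiratory chain held the largest shares of kept genes. Of 45 cytosolic ribosomal protein genes 33 were kept, 6 were lower and 3 higher, while 34.5% of all genes were kept with or without a call, although with cyclic loess 17 were lower. Rps4x, Rps9 and Rplp1 differed by -0.18, -0.17 and -0.15, and another Rps9 probe fell by 0.30. Of 48 genes of the respiratory chain and ATP synthase 26 were kept, 9 were higher and 3 lower. Atp5b and Cox5b differed by -0.07 and -0.04, another Cox5b probe fell by 0.38, and Atp5a1, the α subunit of ATP synthase, rose from 7.31 to 9.47, with 8.89 in U-titled cells. Genes of MYC and ribosome biogenesis, with 13 of 38 kept, 9 higher and 5 lower, were close to the 34.5% kept and 24.6% higher over all genes. Mxd1, a MAX partner, fell by 0.75, and Dkc1, dyskerin, was at least 2.17-fold higher, with no C-titled array above background.

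**Figure D4:**
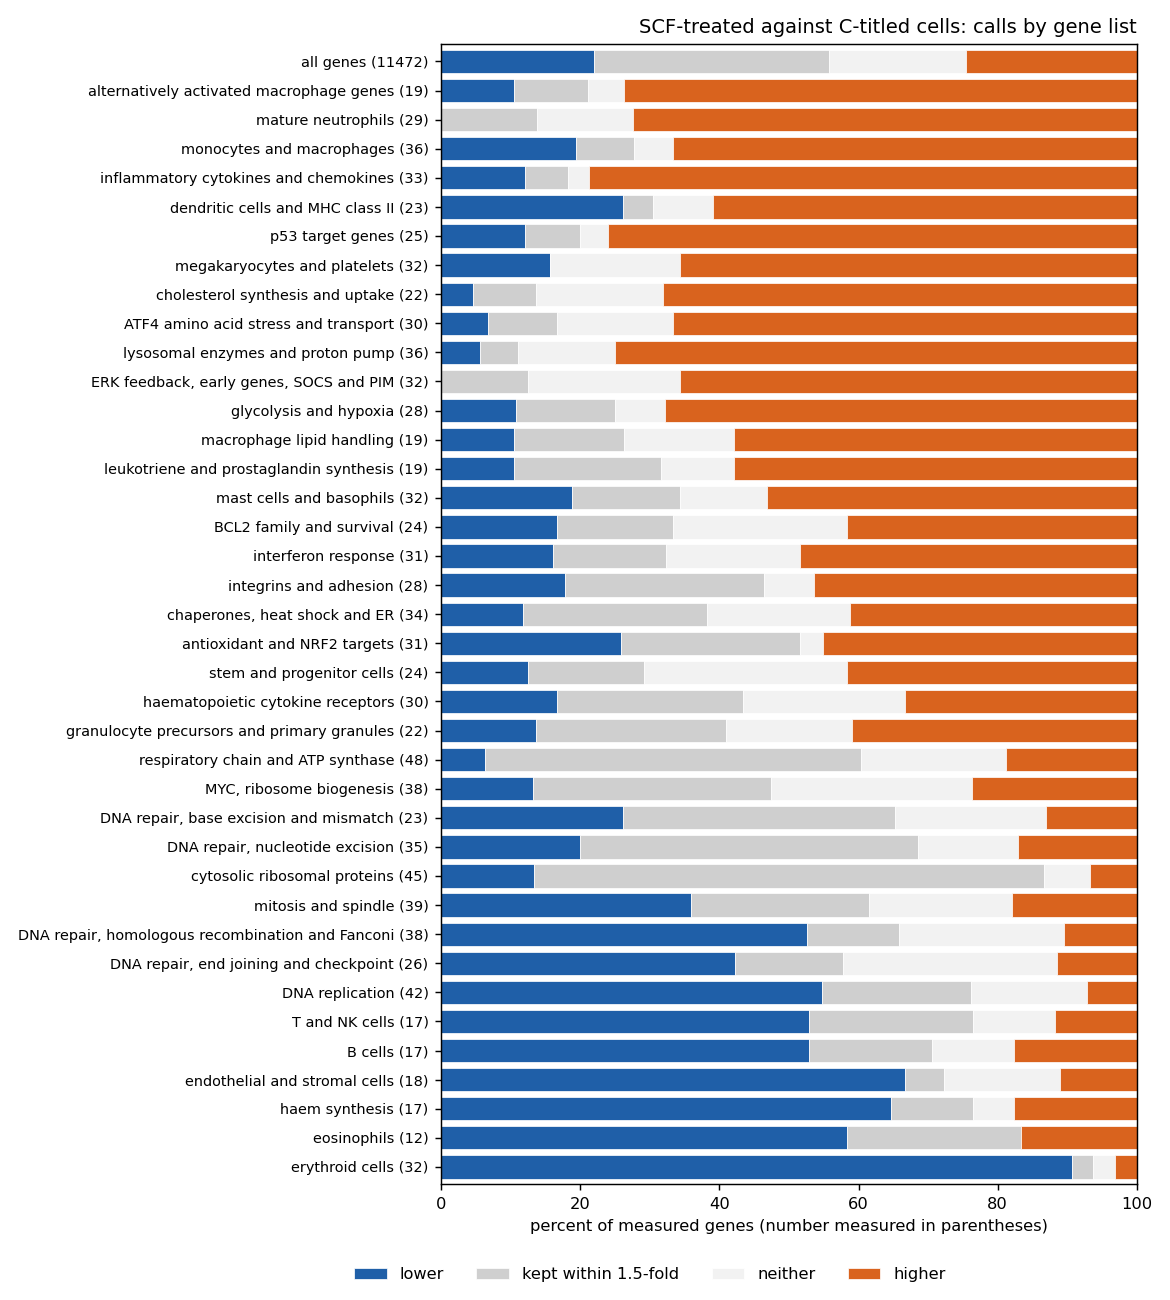
Share of the measured members of 38 gene lists, and of all genes, that were lower, kept within 1.5-fold without a call, neither or higher in SCF-treated against C-titled cells (horizontal axis, percent, adding to the whole list). Lists are ordered by their median log2 difference, with 29 of 32 erythroid genes lower at the bottom, 33 of 45 ribosomal protein genes kept in between and 14 of 19 alternative activation genes higher near the top.

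Metabolic genes rose more often than they fell. Of 28 genes of glycolysis and hypoxia 19 rose and 3 fell. Slc2a1, the glucose transporter GLUT1, rose by 2.23, Aldoc, an aldolase, by 2.61 (1 of 3 C-titled arrays above background), Egln3, a hypoxia-induced prolyl hydroxylase, by 2.50 and Ddit4, an inhibitor of mTOR, by 2.27. Of 22 genes of cholesterol synthesis and uptake 15 rose and 1 fell. Msmo1, a sterol oxidase, read 5.39, 4.93 and 5.38 on the C-titled arrays, 10.19, 10.19 and 10.48 on the U-titled and 10.04, 9.86 and 9.38 on the SCF-treated arrays (log2 difference 4.53, standard error 0.25, adjusted p = 1.87e-10), Idi1, isopentenyl diphosphate isomerase, rose by 2.69 (1 of 3 C-titled arrays above background) and Insig1, the feedback protein of the sterol pathway, by 2.75. Scd1, a fatty acid desaturase, was the 1 gene that fell, by 1.17, and Fasn, fatty acid synthase, was kept at 0.22.

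Of 30 genes of the ATF4 amino acid stress response 20 rose and 2 fell. Chac1, a glutathione-degrading enzyme, Trib3, a pseudokinase, and Slc3a2, the heavy chain of amino acid exchangers, rose by 3.58, 2.84 (2 of 3 C-titled arrays above background) and 2.63 (1 of 3 C-titled arrays above background), and Asns, asparagine synthetase, was kept at 0.08. Chaperone genes rose in 14 of 34, fell in 4 and were kept in 9. Hspa8 and Hspa9 were kept, at -0.19 and 0.02, although another Hspa8 probe rose by 0.49, while Hspa5, the chaperone BiP of the endoplasmic reticulum, was above background on 2 of 3 C-titled arrays and read 4.66 there against 7.72 in treated and 7.50 in U-titled cells. Of 31 antioxidant genes 14 rose and 8 fell. Slc7a11, the cystine importer, and Txnrd1, thioredoxin reductase, were at least 4.48-fold and at least 3.48-fold higher, with no C-titled array above background. Prdx2 and Cat, peroxiredoxin 2 and catalase, which are abundant in red cells, fell by 1.22 and 1.28, but another, dim Cat probe, above background on treated and not on C-titled arrays, went the opposite way (1.28). Gpx1, Gpx4 and Fth1 were kept, at -0.09, -0.03 and 0.13, on their brightest probes. Other probes gave -0.42 and 0.45 for Gpx4 and 0.58 for Fth1, all of which passed.

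Genes of leukotriene and prostaglandin synthesis rose in 11 of 19 and fell in 2, with Pla2g7, the phospholipase that degrades platelet-activating factor, at least 9.02-fold higher and Cysltr1, a leukotriene receptor, higher by 1.46. Integrins and adhesion molecules rose in 13 of 28, fell in 5 and were kept in 8. Itgb2, the β chain of the complement receptor Mac-1, rose by 1.93. Its α chain, Itgam, and Itgb3, the β chain of the platelet fibrinogen receptor, were above background on no C-titled array and at least 2.86-fold and at least 2.04-fold higher. Itgal, the α chain of LFA-1, Itga5, the α chain of the fibronectin receptor, and Selplg, the ligand of P-selectin, fell by 0.86, 1.08 and 0.51. Cd44 and Cd47 were kept on their brightest probes, at 0.12 and -0.05, but 2 other probes of each were higher, by 2.12 and 1.10 for Cd44 and by 0.94 and 0.37 for Cd47.

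Of the 8 genes gained from below background with the largest bounds, Saa3 and Lyzl4 remain to be described. Saa3, an acute-phase apolipoprotein, read 4.47, 4.61 and 4.54 on the C-titled arrays, 9.79, 9.64 and 9.50 on the U-titled and 9.95, 9.87 and 8.69 on the SCF-treated arrays, and was at least 28.9-fold higher. Lyzl4, a lysozyme-like gene, read 4.46, 4.30 and 4.35 on the C-titled arrays, 7.86, 7.69 and 7.66 on the U-titled and 9.88, 10.21 and 8.22 on the SCF-treated arrays, and was at least 27.6-fold higher, with the treated arrays above the U-titled ones by 1.70 (adjusted p = 0.00111). Thumpd1, given above, was at least 31.4-fold higher. Only 17 of the 406 genes were below background on all C-titled, CD117- and U-titled arrays. Named here after their values were seen, Etv4, an ETS factor induced by ERK, read 5.20, 5.03 and 5.51 on the treated arrays and was at least 1.51-fold higher, Spry4, a feedback inhibitor of the same pathway, read 4.79, 4.77 and 4.82 and was at least 1.1-fold higher, and Ch25h, cholesterol 25-hydroxylase, read 6.19, 6.47 and 4.67 and was at least 2.18-fold higher.

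For some of the called genes another probe, above background on all 6 arrays, did not pass. It gave 0.47 for Csf1r, -0.47 for Mus81, -0.47 for Uros, -0.15 for Cdc25a, -0.24 for Ung, -0.39 for Csrp3 and -0.52 for Selplg. The 2 other probes of Bcl2l11 gave -0.20 and -0.09, and those of Ifnar2 0.12 and -0.36. These calls therefore rest on the brightest probe of the gene.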

How the data were processed

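RNA of 12 samples had been hybridized to Illumina mouse bead arrays. The authors deposited raw probe intensities with a detection p-value per probe, and processed intensities quantile normalized in 2 sets, 1 of the CD117- and C-titled and 1 of the U-titled and SCF-treated samples. The methods speak of RNA sequencing and counts, but the values are array intensities. The sets are not comparable, so the raw intensities were used here, and the processed ones only for their medians. In R 4.3.3 with limma 3.58.1, neqc corrected background from the detection p-values (offset 16) and quantile normalized all 12 arrays together, giving log2 intensities. A probe entered if 3 or more arrays gave it a detection p under 0.05, and the brightest probe stood for a gene. A model of 4 group means with moderated variances (lmFit, eBayes with trend, 8 residual degrees of freedom) gave SCF minus C, adjusted by Benjamini-Hochberg over 11472 genes.

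Gene symbols came from the platform annotation and RefSeq. The members and gene lists were chosen with earlier results of these data known. Named genes were Kit, Brca1, Brca2, Ercc2 and Xrcc3, the 10 largest increases and 10 largest decreases whose arrays did not overlap, the 8 genes with the largest excess of C-titled over CD117- cells, in each list up to 4 higher, 4 lower and 3 kept members, and up to 8 genes detected in 1 group only in each direction. Genes outside this rule are marked where they appear. Alternatives were other scalings, background settings, detection filters, probe rules, fits of fewer arrays, array weights, a minimum fold, a replicate block and leaving out each array. Precision is limited by the 3 arrays per group. The fit was tested on simulated data. Promoter windows came from RefSeq (GRCm38.p6). Figures were drawn with Python 3.11.15 and matplotlib 3.10.9.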

Additional observations from a re-analysis of the deposited data

How the results depend on the processing

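The counts of 2823 higher and 2514 lower genes stayed within 1.5 times with 2 exceptions. With median scaling 1374 genes were lower and 3878 higher, and with a minimum fold of 1.5 in the test 659 were lower and 1032 higher. Leaving out each of the 6 arrays in turn gave 2447 to 2677 higher and 2099 to 2376 lower genes. The count of genes kept within 1.5-fold was 7279 without background correction, 6111 with an offset of 50 and 12714 with no filter on dim probes, in place of 3956, and more genes were tested in the last. With a detection p under 0.01 the genes above background on all C-titled and no treated arrays numbered 158 in place of 300, and the reverse 255 in place of 406. With the mean of all probes of a gene, the direction turned for Ercc5 (-1.12), Mki67 (0.0615), Npm1 (0.71), Rpl29 (-0.19) and Slc38a2 (0.18), and the cause was not tested beyond their probes. Of 364 named genes 247 kept their direction and side of the threshold in every setting. Another probe of other sign or side existed for 73. Same-numbered arrays did not deviate together (correlations -0.117, 0.065 and -0.117), and arrays of unlike number gave -0.18 to 0.213. With 3 arrays per group these values cannot decide whether the numbers pair the samples. With the replicate block 2813 genes were higher and 2463 lower. Differences of genes with some arrays of a group at background are uncertain in size, and the 3 arrays per group limit the precision.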
